A study of Mus musculus with 383 samples.

Results

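The cortex arrays were 98 Affymetrix expression arrays of the mouse genome, 1 array from each of 98 mice, chosen by their tissue label from 383 arrays of 117 mice. The other arrays were of thalamus, hippocampus (83) and hypothalamus (94), and these were used only to ask whether cortex behaved differently or whether the same mice stood high or low elsewhere. Every animal was a male of an F2 (the second generation of a cross), whose inbred founders were C57BL/6J and 129S1/SvImJ, so each mouse carried its own mixture of the parental genomes. All had arrived at 4 weeks of age, been tested for anxiety- and depression-related behaviour from 7 weeks, received electrodes for sleep recording (EEG and EMG) at 10 weeks, and gone through 6 h of sleep deprivation and 1 h of restraint, all before a final period in which they were not disturbed. Tissue was taken at 16 weeks, 6 to 7 h after lights on in a cycle with 12 h of light. There was no treated and no untreated group: the question was which transcripts differ from mouse to mouse in cortex, by how much, and together with which others.

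The cerebral cortex is built mainly of layered glutamatergic projection neurons, together with GABAergic interneurons, astrocytes, oligodendrocytes, microglia and vessels. Beneath it lie the striatum, whose projection neurons are GABAergic and respond to dopamine, and the myelinated fibres of the white matter. Neurons switch on immediate early genes within minutes of activity, and the expression of these genes in cortex is known to follow wakefulness. The arrays measured bulk tissue, so that fewer cells of a type and less RNA per cell cannot be told apart in any of the values below.

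All values are on a log2 scale. Of 45037 probe sets, 34945 had a single gene symbol, and these gave 18193 genes, each read from its probe set with the highest cortical mean. Per probe set the median SD over mice was 0.218, and per gene it was 0.182. Any pair of cortex arrays correlated at r = 0.982 to 0.991 over all probe sets, and no pair was identical. The RNA integrity number (RIN, a score of RNA quality) ran from 6.1 to 8.6 with a median of 7.7, and 5 arrays were under 7. The mice came from 9 cohorts of 6 to 15 mice, and their arrays were hybridised on 3 dates, with 78, 14 and 6 arrays.

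The label was checked with markers of cortical projection neurons. Tbr1, whose product regulates transcription in glutamatergic neurons, lay between 8.55 and 9.53 in all 98 arrays, with a mean of 9.02, while its mean in thalamus was 3.84. Fezf2, which specifies deep-layer projection neurons, averaged 8.73 in cortex and 4.85 in thalamus, and Neurod6, a neuronal differentiation factor of the forebrain, averaged 9.66 in cortex and 4.95 in thalamus. The arrays of each region had been normalised apart, so these differences in level hold only roughly, but for all 3 markers the cortical values lay above every thalamic value.

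The brightest probe sets belonged to genes of myelin, synapses, translation and metabolism. Mbp, which encodes myelin basic protein, had the highest mean at 14.18, followed by Camk2n1, an inhibitor of the synaptic kinase CaMKII, at 14.18 and the ribosomal protein gene Rps29 at 14.17. The next were Ndrg4 (14.16), the ferritin heavy chain gene Fth1 (14.10), the cytochrome oxidase subunit Cox6a1 (14.09), the neuropeptide-processing enzyme Cpe (14.04), the mitochondrial complex I subunit ND5 (13.97), the elongation factor Eef1a1 (13.97) and the growth cone protein gene Basp1 (13.94). The synaptic fusion protein gene Snap25 (13.88), the amyloid precursor gene App (13.86) and the chaperone gene Hspa8 (13.77) were also among the 20 highest. These values say which probe sets were brightest, since probes of different genes do not bind alike. The SDs of the 20 ran from 0.04 for Tpt1, the gene of translationally controlled tumour protein, to 0.12 for Ptgds, which encodes a prostaglandin synthase. These probe sets lie at the upper end of the measured scale, and how far that end limits their SDs was not tested.

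A small number of genes differed between mice by far more than the rest. The SD over the 98 mice was over 1 for 19 genes and over 0.5 for 155, of 18193. Prune2 had the largest SD at 2.28, with a lowest value of 4.92, a median of 10.44 and a highest value of 12.62. Its values fell into separate clusters: 39 mice lay at or below 7.90 with a mean of 6.79, the other 59 lay at or above 9.93 with a mean of 11.20, and no mouse lay between. Rbm45, which encodes an RNA-binding protein, had 27 mice around 5.04 and 71 around 9.18 (SD 1.89). Tmem267, which encodes a membrane protein, had 16 mice around 4.85 and 81 around 8.77 (SD 1.51). In these 3 genes the smaller cluster was the lower one, and the gap between clusters was wider than 2 log2 units.

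**Figure D1:**
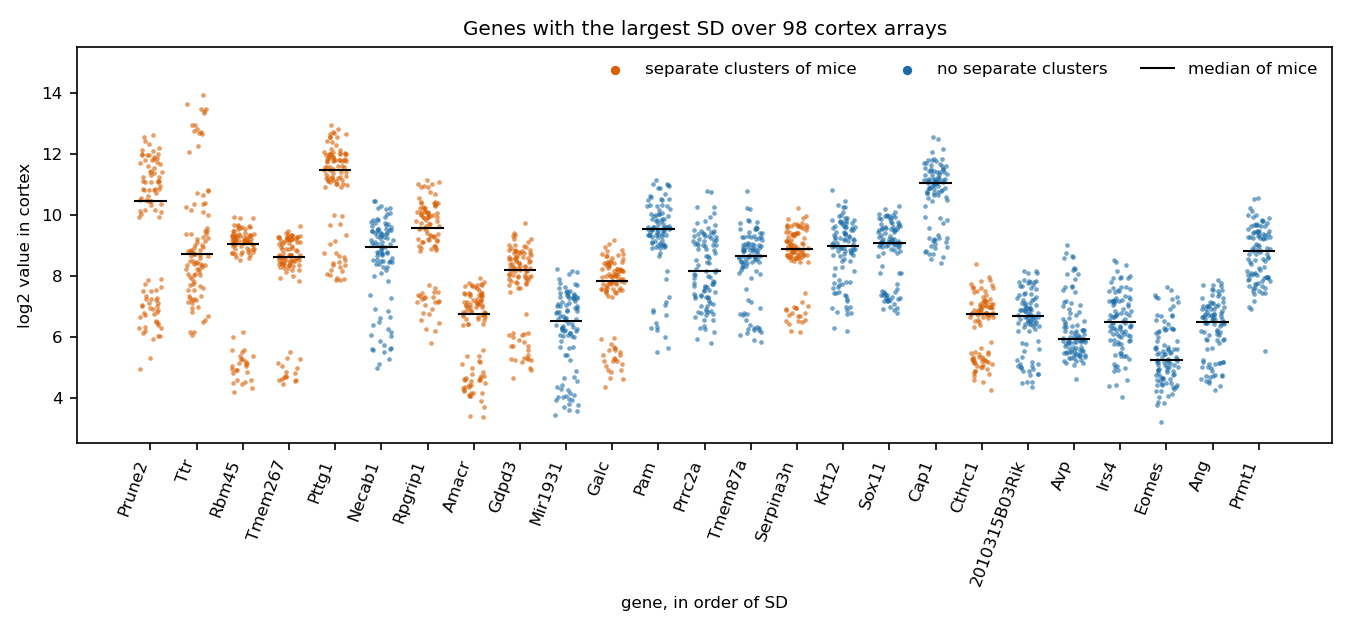
Log2 values of the 25 genes with the largest SD over the 98 cortex arrays, in order of SD, with 1 point per mouse and a bar at the median; orange marks genes whose mice fall into separate clusters. Prune2, Rbm45 and Tmem267 split into a low and a high cluster with an empty band between, while Prrc2a, Irs4 and Eomes spread without a gap.

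Separate clusters, taken as a gap wider than 0.5 SD with at least 6 mice on each side, were present in 11 of these 25 genes and in 208 of all 18193 genes. Among the 208, the smaller cluster was the lower one in 125 genes and the upper one in 83. It held a median of 6.28% of the mice, close to the minimum of 6 mice that the rule sets, and many of these gaps part off only a few mice. The clusters differed by a median of 0.515 log2 units, and by over 1 log2 unit in 21 genes. How many such gaps arise in genes without clusters was not tested. The clustered genes of the top 25 included Pttg1, which encodes securin, with 25 mice around 8.63 and 73 around 11.74. They also included Rpgrip1, a ciliary protein gene of photoreceptors (24 mice around 7.03, 72 around 9.86), and Amacr, a racemase of branched-chain fatty acid breakdown (36 around 4.49, 62 around 7.12). For Galc, which encodes the enzyme galactosylceramidase of myelin lipid turnover, 23 mice lay around 5.26 and 73 around 8.08. Serpina3n, a protease inhibitor gene that reactive astrocytes express, had 20 mice around 6.73 and 78 around 9.09. Gdpd3 (24 around 5.59, 74 around 8.43) and the secreted protein gene Cthrc1 (35 around 5.14, 61 around 7.05) had the same shape.

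Ttr, the gene of transthyretin, had clusters of the other shape. Its values ran from 6.04 to 13.94 with a median of 8.71, and 15 mice formed a high cluster around 13.00 while 82 lay around 8.45. Transthyretin is secreted by the choroid plexus, the tissue that makes cerebrospinal fluid. All 3 further Ttr probe sets followed the named one at r of up to 0.976. The mean of the 9 measured choroid plexus genes ran from 5.01 to 7.58 over the cortex arrays with a median of 5.57, and its part in the spread of Ttr was not tested. Of the other members of that list, the chloride channel gene Clic6 ran from 6.40 to 8.91. The remaining 7, among them the potassium channel subunit gene Kcne2 (3.36 to 5.40), had medians between 4.11 and 5.56 and highest values between 5.33 and 6.72. The SDs of the 9 ran from 0.29 for the water channel gene Aqp1 to 1.97 for Ttr.

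Other genes of the 25 spread without such a gap. Necab1, which encodes a neuronal calcium-binding protein, ran from 4.98 to 10.45 with a median of 8.94. Pam, the enzyme that amidates neuropeptides, ran from 5.51 to 11.14 with a median of 9.53. Prrc2a, which encodes a protein that binds RNA, ran from 5.80 to 10.77 with a median of 8.14. Cap1, an actin regulator, lay higher, between 8.43 and 12.53, whereas the vasopressin gene Avp, the insulin receptor substrate gene Irs4 and the T-box transcription factor gene Eomes had medians of 5.94, 6.48 and 5.25. Prmt1, which encodes an arginine methyltransferase, closed the list with an SD of 0.923, and Zfp874a, just outside it, had 0.919. Mir1931, Tmem87a, Krt12, Sox11, 2010315B03Rik and Ang made up the rest of these, with SDs from 0.952 to 1.31.

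A spread seen by 1 probe set need not be that of the whole transcript. Of the 25 genes, 13 had further probe sets. All of them followed the named probe set (r over 0.5 over mice) for Ang, Cap1, Eomes, Krt12, Pttg1 and Ttr, with the highest r of each gene between 0.878 and 0.976. None did for Galc, Irs4, Necab1, Prrc2a, Prune2 and Rpgrip1, where the highest r was 0.335, and for Sox11 1 of 5 did. Some ran against the named probe set, with the lowest r at -0.864 for Prune2 (rho = -0.893), -0.741 for Sox11 (rho = -0.788), -0.631 for Galc (rho = -0.647) and -0.603 for Rpgrip1 (rho = -0.612), given over all 98 mice as a description. For those 6 genes the values therefore describe 1 probe set and not the transcript as a whole.

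Whether a mouse that stood high in cortex also stood high in other regions was asked over the mice with both arrays (91 with thalamus, 69 with hippocampus and 80 with hypothalamus). Of 45037 probe sets, 3994 passed for thalamus (8.87%, adjusted p under 0.05 by Benjamini-Hochberg), 2585 for hippocampus (5.74%) and 3055 for hypothalamus (6.78%). Positive correlations were found for 1756 genes with thalamus (9.65% of 18193), 1079 with hippocampus (5.93%), 1321 with hypothalamus (7.26%) and 720 with all 3 regions (3.96%). Of the 25 genes with the largest SD, 19 correlated positively with thalamus and 17 with all 3 regions (68%). The share with all 3 fell to 56% among the 100 genes with the largest SD and to 13.45% among the 2000.

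For named genes without separate clusters, Ang, which encodes the ribonuclease angiogenin, correlated between cortex and thalamus at Pearson r = 0.953 and Spearman rho = 0.955. Cap1 correlated at r = 0.940 and rho = 0.928, and the probe set annotated to Mir1931 at r = 0.916 and rho = 0.916. Each had a permutation p of 1e-05, the smallest that 100000 permutations can give, and 2.56e-05 after adjustment over the 156 relations computed for 41 named genes, and r stayed at or over 0.913 once the 2 mice lying farthest from the cortical median were left out. In genes with clusters the relation was taken within each cluster. In the upper cluster r between cortex and thalamus was 0.861 for Prune2 (rho = 0.871, 55 mice), 0.863 for Pttg1 (rho = 0.856, 67 mice) and 0.890 for Serpina3n (rho = 0.864, 73 mice), each with an adjusted permutation p of 2.56e-05. Of the 11 genes with clusters, 10 passed in the upper cluster and 3 in the lower one. In the lower cluster r was 0.565 for Prune2 (rho = 0.501, 36 mice, adjusted permutation p = 0.00126), 0.641 for Serpina3n (rho = 0.686, 18 mice, adjusted permutation p = 0.00786) and 0.719 for Rpgrip1 (rho = 0.688, 23 mice, adjusted permutation p = 0.00052). Pttg1 did not pass there (r = 0.424, rho = 0.475, 24 mice, adjusted permutation p = 0.0659, and r = 0.245 without the 2 farthest mice). For the 8 genes that did not pass in the lower cluster, r ran from 0.092 to 0.424. Lower clusters held fewer mice, and the difference between clusters was not tested.

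For 6 of the 25 genes no correlation with any other region passed. In Prrc2a (thalamus r = -0.193, rho = -0.155, permutation p = 0.0666), Irs4 (0.050, 0.044, permutation p = 0.637), Eomes (-0.023, -0.008, permutation p = 0.827), Prmt1 (-0.111, -0.129, permutation p = 0.295) and Avp (-0.070, -0.008, permutation p = 0.511) no relation between cortex and thalamus was detected. In Ttr r was 0.140 in the lower cluster (rho = 0.082, 77 mice, permutation p = 0.227) and -0.270 in the upper cluster (rho = -0.196, 14 mice, permutation p = 0.358). These 6 genes thus combined a wide spread in cortex with no detected relation to the other regions of the same animals. Krt12 correlated with thalamus (r = 0.754, rho = 0.737) and hippocampus (r = 0.697, rho = 0.695; permutation p = 1e-05 each), while its r with hypothalamus was 0.028 (rho = 0.084, permutation p = 0.808). In the upper cluster of Rpgrip1, cortex correlated positively with thalamus (r = 0.835, rho = 0.930, permutation p = 1e-05) and negatively with hippocampus (r = -0.487, rho = -0.474, permutation p = 0.00021) and hypothalamus (r = -0.371, rho = -0.347, permutation p = 0.00253).

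The pairing of arrays to mice was checked for cortex and thalamus, and it held for all 91 mice with both. The pairing with hippocampus and hypothalamus arrays was not tested. Over 200 genes chosen in hypothalamus, each of 91 cortex arrays correlated best with the thalamus array of its own animal, at r = 0.647 to 0.889 after centring, while the highest r with any other animal was 0.446.

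To find genes that vary together, the 2000 genes with the largest SD among those with a mean over the median of all gene means were clustered on their correlation over the 98 mice. This gave 27 sets of at least 8 genes, holding 425 genes (21.25%), with sizes from 8 to 90. Within a set the mean pairwise r ran from 0.544 to 0.652, against a median of 0.015 over all pairs clustered. The sets were chosen for this correlation, so it is a description and carries no test. Each is called here by its leading gene, the one closest to the set mean. For 9 sets, over 50% of the genes lay on 1 chromosome, and for the other 18 no chromosome held that many.

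**Figure D2:**
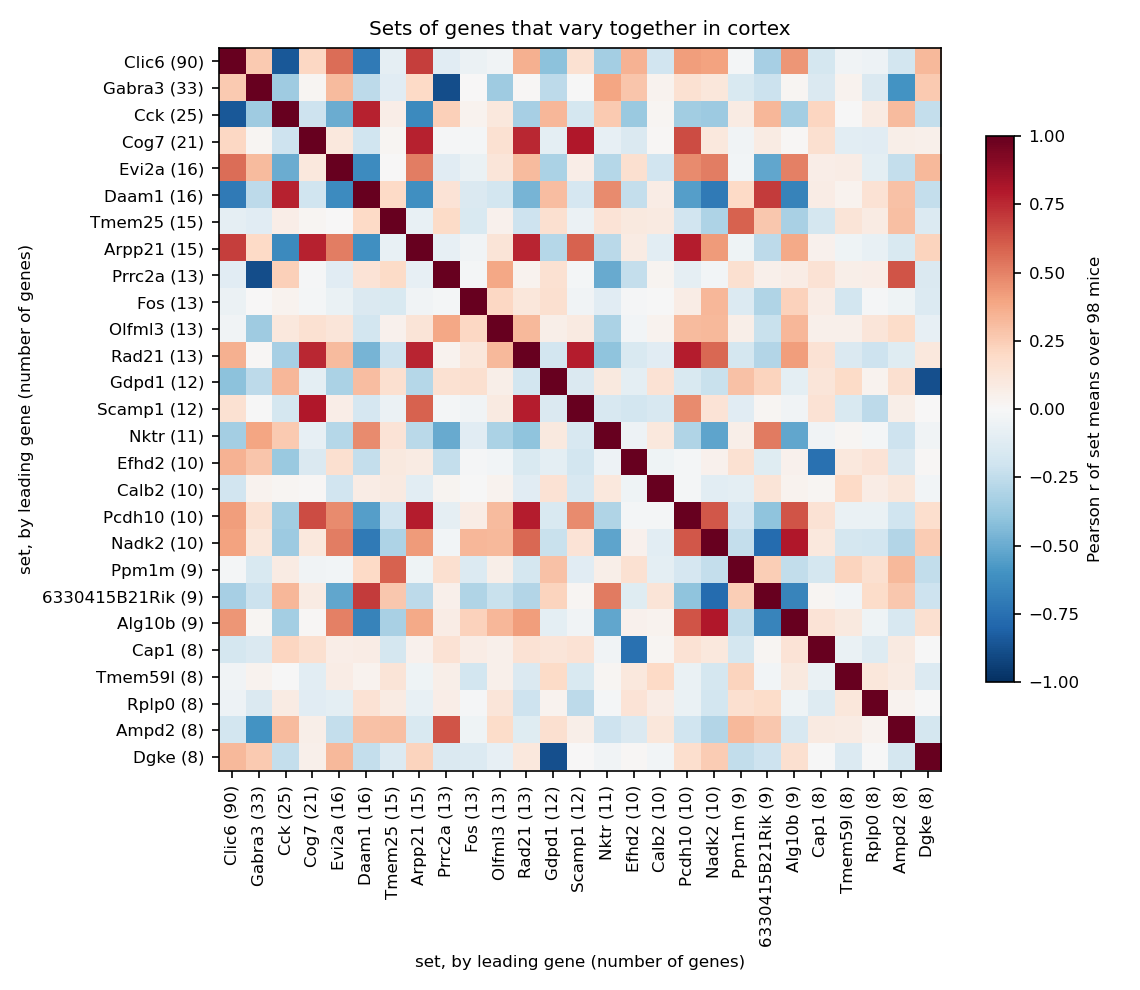
Pearson r over the 98 mice between the means of the 27 sets (each the average of standardised genes), with the number of genes in brackets; red is positive and blue negative. The sets led by Clic6 and Cck (-0.85), by Gabra3 and Prrc2a (-0.89) and by Gdpd1 and Dgke (-0.88) run opposite to each other.

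The largest set, led by Clic6, held 90 genes, 15 of them in any of the lists used here. Of these, 7 were in the list of striatal projection neurons, 3 in that of interneurons (Slc32a1, Gad2 and Lhx6), 2 in that of thalamus neurons (Slc17a6 and Prkcd), and 1 each in those of hypothalamus neurons (Oxt), cortical excitatory neurons (Foxp2) and choroid plexus (Clic6). The striatal members were Penk, the enkephalin precursor of indirect-pathway striatal neurons, the dopamine receptor genes Drd1 and Drd2, Ppp1r1b, which encodes the dopamine-regulated phosphoprotein DARPP-32, Gpr6, Rgs9 and Tac1. The other leading members included Slc32a1, which encodes the vesicular GABA transporter, and the transcription factor genes Isl1, Six3 and Lhx8. Penk ran from 11.37 to 12.77 with a median of 12.29, Drd1 from 9.88 to 11.11 with a median of 10.70, and Lhx8, a factor of cholinergic forebrain neurons, from 4.66 to 8.72 with a median of 7.86. The distribution had its long tail at the low end: the set mean, in SD units, ran from -2.15 to 1.41 with a median of 0.09. Of the 8 measured markers of striatal projection neurons, 7 were members, and the eighth, the phosphodiesterase gene Pde10a, was in the set led by Arpp21.

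The 90 genes of the Clic6 set were correlated in cortex, as they were chosen to be. Their mean pairwise r was 0.588 in cortex, 0.031 over the thalamus arrays, 0.122 in hippocampus and 0.026 in hypothalamus. Lower values elsewhere follow in part from the selection of the sets in cortex. Within the 78 arrays of the largest hybridization date it was 0.526, and within the 14 of the next 0.749. Only 1 of the 90 genes, Isl1, correlated positively between cortex and thalamus of the same mice. Of all genes 9.65% did, and of the 2000 clustered 33%. For Drd1 r was 0.194 and rho 0.228 over 91 mice (permutation p = 0.0649 for r and 0.0301 for rho, adjusted p = 0.105 for r over the 156 relations). The mean of the 8 striatal markers ran from 9.78 to 11.48 over the cortex arrays and from 8.05 to 8.53 over the thalamus arrays. The part that striatal tissue in the pieces taken has in these values was not tested.

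A set of 25 genes led by Cck, the cholecystokinin gene, ran against the Clic6 set. It held 1 gene of the cortical excitatory list, Fezf2. Other members were Vxn, Ipcef1, the cholecystokinin receptor gene Cckbr, the adenylyl cyclase gene Adcy1, the glutamate receptor gene Grm2 and the zinc finger gene Zbtb16. Cck ran from 11.40 to 12.28 with a median of 11.75, and Cckbr from 9.46 to 10.27 with a median of 9.83. The mean of this set correlated with that of the Clic6 set at r = -0.85. The 16 genes led by Daam1, among them the neuronal splicing factor Nova2 and the presynaptic scaffold gene Bsn, went with the Cck set (r = 0.77) and against the Clic6 set (r = -0.71). No gene of the Cck or Daam1 set correlated positively between cortex and thalamus of the same mice. The share was 9.65% among all genes and 33% among the clustered genes. The make-up of both sets depended on the settings. With Spearman's rho 9 of the 25 Cck genes and 7 of the 16 Daam1 genes stayed in 1 set, and within the largest hybridization date 10 and 3 did. With the tree divided at 0.4 no gene of either was in a set, and with 1000 genes clustered, which took in 9 and 4 of them, none was either. With RIN regressed out, 20 and 9 stayed in 1 set.

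**Figure D3:**
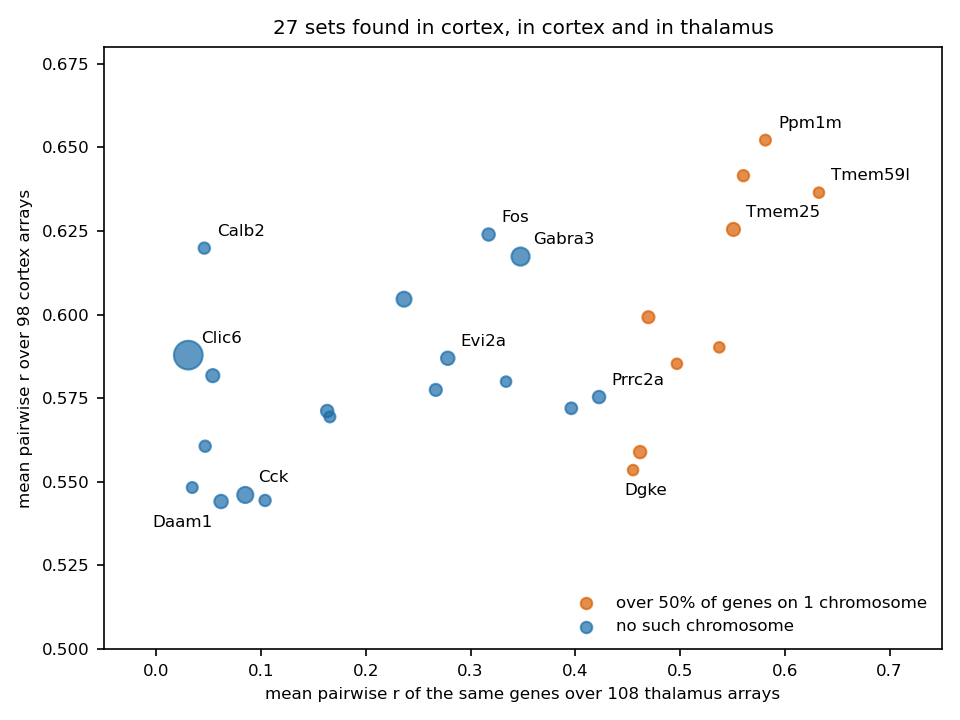
For each of the 27 sets, the mean pairwise Pearson r of its genes over the 98 cortex arrays, where the sets were found, against that of the same genes over the thalamus arrays; the area of a point grows with the number of genes. The 9 sets with over 50% of their genes on 1 chromosome (orange) lie between 0.455 and 0.633 on the thalamus axis, and the Clic6, Cck and Daam1 sets lie under 0.1.

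Genes of myelinating oligodendrocytes formed a set of 16 led by Evi2a. It held Mal, Ermn, Opalin and the myelin glycoprotein genes Mog and Mag, the myelin gene Mobp, and Ugt8a, which makes the main lipid of myelin, so that 7 of the 11 measured oligodendrocyte markers were members. Mog ran from 8.26 to 9.39 with a median of 8.72, and Mal from 10.70 to 11.76 with a median of 11.21. The mean pairwise r was 0.587 in cortex, 0.278 in thalamus, 0.652 in hippocampus and 0.369 in hypothalamus. Its mean correlated with that of the Clic6 set (r = 0.56, rho = 0.54). Of the 16 genes, 5 correlated positively between cortex and thalamus of the same mice (31.25%, where 9.65% of all genes and 33% of the 2000 clustered did), namely Mog, Cd9, Mobp, Opalin and Pdlim2, with r of 0.34 for Mobp and 0.43 for Opalin.

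Immediate early genes formed a set of 13 led by Fos. Its members were the transcription factor genes Fos, Fosl2, Junb, Egr1, Egr4, Nr4a1, Nr4a3, Klf10 and Ier2, Arc, whose protein acts at active synapses, Dusp1 and Dusp6, which encode phosphatases that end MAP kinase signalling, and Tiparp. Several are classical targets of the cAMP-responsive factor CREB, which binds the palindrome TGACGTCA or the shorter CGTCA. The 250 bases upstream of the annotated start are shown for 4 members (RefSeq, GRCm38.p6, given 5′ to 3′ on the strand of the gene), with capitals marking CGTCA or its reverse complement TGACG. Each of the 4 carries these letters more than once, and how often other members carry them was not counted. The intervals are chr12:85473640-85473889 on the plus strand for Fos, chr15:101266596-101266845 on the plus strand for Nr4a1, chr4:48045055-48045304 on the plus strand for Nr4a3 and chr17:26508473-26508722 on the minus strand for Dusp1.
Fos: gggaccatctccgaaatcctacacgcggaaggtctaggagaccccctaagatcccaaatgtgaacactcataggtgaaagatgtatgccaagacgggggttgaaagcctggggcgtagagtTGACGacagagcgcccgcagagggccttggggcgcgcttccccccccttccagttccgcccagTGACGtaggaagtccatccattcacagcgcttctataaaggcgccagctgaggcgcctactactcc
Nr4a1: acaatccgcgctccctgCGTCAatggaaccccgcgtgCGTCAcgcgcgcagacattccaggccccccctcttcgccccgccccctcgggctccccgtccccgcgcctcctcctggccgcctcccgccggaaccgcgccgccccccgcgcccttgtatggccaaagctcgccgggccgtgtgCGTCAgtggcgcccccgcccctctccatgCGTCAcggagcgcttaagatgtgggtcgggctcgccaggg
Nr4a3: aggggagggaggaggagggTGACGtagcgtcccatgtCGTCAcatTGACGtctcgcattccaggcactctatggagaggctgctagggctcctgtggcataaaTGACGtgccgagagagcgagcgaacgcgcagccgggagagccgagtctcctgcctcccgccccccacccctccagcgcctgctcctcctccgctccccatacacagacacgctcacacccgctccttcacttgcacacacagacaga
Dusp1: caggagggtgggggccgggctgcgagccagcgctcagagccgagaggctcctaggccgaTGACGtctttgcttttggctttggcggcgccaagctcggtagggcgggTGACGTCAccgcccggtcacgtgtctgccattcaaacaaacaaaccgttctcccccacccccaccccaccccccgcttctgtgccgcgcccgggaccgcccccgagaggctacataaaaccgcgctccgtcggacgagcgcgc

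Promoters were at hand for 9 of the 13 members, and CGTCA on either strand was found in 6 of them (Fos, Nr4a1, Nr4a3, Dusp1, Junb and Egr4), against 17.8% of all 32851 promoters of that length. Members were counted by gene, taking any promoter of the gene, and the shares of all were counted by promoter, so the units differ. The full palindrome TGACGTCA, which contains CGTCA on both strands, was found in Dusp1 alone (1.55% of all promoters). The TATA box letters TATAAA on either strand were found in Fos alone (12.4%), and the CArG box, the motif of serum response factor, in none (1.47%). A match is a match of letters and does not show that a factor was bound. Bases farther upstream were not searched, so a motif not found here can still lie there.

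The immediate early genes spread widely over the mice. Fos ran from 7.49 to 10.56 with a median of 9.03, Arc from 6.91 to 10.56 with a median of 8.91, and Egr1 from 11.57 to 12.93 with a median of 12.23. The mice formed a continuum with no gap. Within the set the mean pairwise r was 0.624 in cortex, 0.317 in thalamus, 0.256 in hippocampus and 0.159 in hypothalamus. It was 0.658 within the largest hybridization date and 0.348 within the next, whose 14 arrays also spread less (SD of Fos 0.431, against 0.744 in the largest).

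The order of mice was shared between cortex and thalamus for most of this set. Of 13 members, 12 correlated positively with thalamus (92.3%), where 9.65% of all genes and 33% of the clustered genes did. With all 3 regions Fos, Dusp1 and Fosl2 did so (23.1%), where 3.96% of all genes and 18.75% of the clustered genes did. Of the 15 genes of the immediate early list, 4 passed with hippocampus and 6 with hypothalamus, where 5.93% and 7.26% of all genes did. For Fos r was 0.895 and rho 0.905 with thalamus (91 mice), 0.666 and 0.635 with hippocampus (69 mice), and 0.833 and 0.826 with hypothalamus (80 mice). Each had a permutation p of 1e-05 and 2.56e-05 after adjustment, and with the 2 most extreme mice left out r was 0.892, 0.599 and 0.815. Nr4a1 correlated with thalamus at r = 0.75, Dusp1 at 0.86, Nr4a3 at 0.65 and Egr1 at 0.59, while Klf10 was the 1 member that did not pass (r = 0.04). Egr2, which lies below the minimum level for clustering, went with Fos in cortex (r = 0.899) but its correlation between cortex and thalamus did not pass (r = 0.16), while those with the other 2 regions did.

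**Figure D4:**
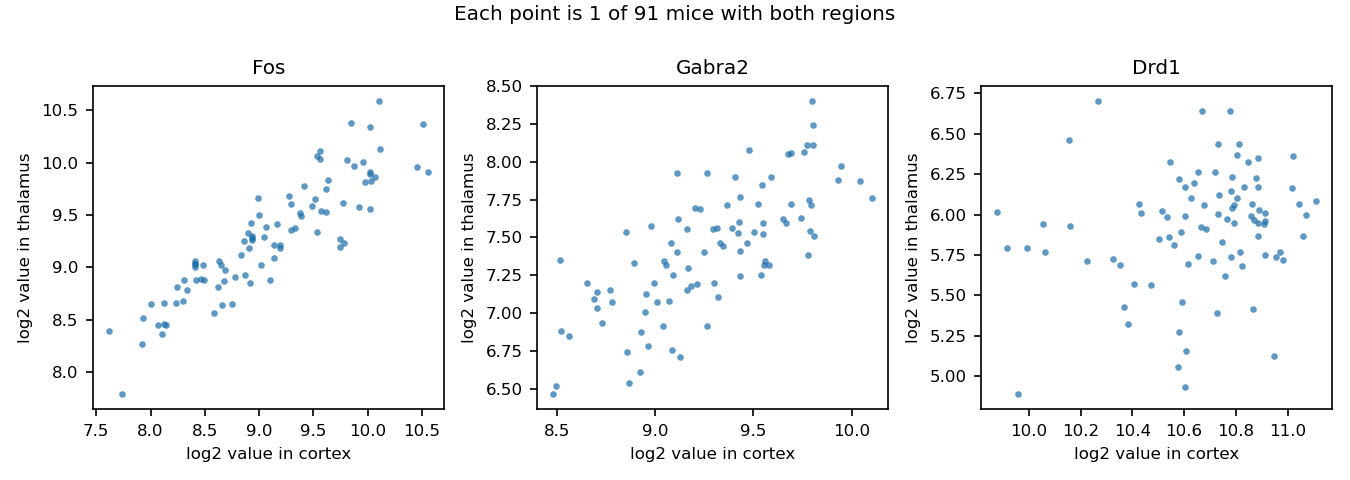
Log2 values of Fos, Gabra2 and Drd1 in cortex (horizontal) against thalamus (vertical), with 1 point for each of 91 mice with both arrays. Fos (r = 0.895) and Gabra2 (r = 0.740) follow a line, and Drd1 (r = 0.194) does not; the regions were normalised apart.

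A pair of opposed sets mixed genes of several roles. The 33 genes led by Gabra3, a GABA-A receptor subunit gene on the X chromosome, included Prmt1, Trappc3, the GABA transporter gene Slc6a11, the disulfide isomerase gene Pdia3 and Tkt of the pentose phosphate pathway. The 13 genes led by Prrc2a included Camk2a, which encodes the alpha subunit of CaMKII, the CDK5 activator gene Cdk5r2, the dynein light chain gene Dynll2 and the neurexin gene Nrxn2. Slc6a11 ran from 5.94 to 9.56 with a median of 7.91, and Camk2a from 10.19 to 12.97 with a median of 11.20. The means of the sets correlated at r = -0.89 over mice. Members also moved together within thalamus (mean pairwise r of 0.348 for the Gabra3 set and 0.423 for the Prrc2a set). Yet only Zfp612 of the 33 genes and none of the 13 correlated positively between cortex and thalamus of the same mice. Among all genes 9.65% did so, and among the clustered genes 33%. Within the 14 arrays of the smaller date the mean pairwise r was 0.352 and 0.234, against 0.665 and 0.652 in the 78 arrays of the largest date. What sets the order of the mice in these genes was not tested.

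Another 9 sets, with 91 genes, lay mainly on 1 chromosome, and 7 of them lay there entirely. They were the sets led by Tmem25 (15 genes) and Ppm1m (9) on chromosome 9, Olfml3 (13) on chromosome 3, Efhd2 (10) and Cap1 (8) on chromosome 4, Gdpd1 (12) on chromosome 11 and Tmem59l (8) on chromosome 8. In the sets led by Rplp0 and Dgke, 7 of 8 genes lay on chromosome 5 and on chromosome 11. In an F2 population neighbouring stretches of a chromosome are inherited together.

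For these genes a mouse high in cortex was mostly high elsewhere. Of the 91 genes, 89 correlated positively between cortex and thalamus (97.8%) and 71 with all 3 regions. Among the 334 genes of the other 18 sets, 24 did so with thalamus (7.19%) and 5 with all 3, while of the 2000 genes clustered 33% did so with thalamus and 18.75% with all 3. The mean pairwise r in thalamus ran from 0.455 to 0.633 over the 9 sets and from 0.031 to 0.423 over the 18. Genotypes were not used here, and the part of inherited variants in these sets was not tested.

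Each chromosome set spanned several functions. The Tmem25 set on chromosome 9 held Cryab, a small heat shock protein gene (9.78 to 11.25, median 10.51), Sc5d of cholesterol synthesis (8.37 to 9.94, median 9.19) and Pts of tetrahydrobiopterin synthesis. Tmem25 itself ran from 8.11 to 10.52 with a median of 9.56 and correlated with thalamus at r = 0.94. The Olfml3 set on chromosome 3 held Olfml3, Fcrls and Ctss, which microglia express, beside the sphingosine receptor gene S1pr1 and the mitochondrial ribosomal protein gene Mrpl9. The Gdpd1 and Dgke sets, both on chromosome 11, ran opposite to each other (r = -0.88), as did the Efhd2 and Cap1 sets on chromosome 4 (r = -0.75).

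Several smaller sets with no main chromosome held neuronal and nuclear genes. The 10 genes led by Calb2, which encodes the calcium-binding protein calretinin, included Dlx1, a transcription factor of interneuron precursors, Fabp7 and Tshz1. Their mean pairwise r was 0.620 in cortex and 0.046 in thalamus, and their set mean, in SD units, ran from -1.40 to 2.31 with a median of -0.24. The 11 genes led by Nktr held the nuclear long RNA Malat1, the splicing factor gene Sfpq and the coactivator gene Crebbp. The means of the sets led by Cog7 (21 genes), Scamp1 (12), Rad21 (13), Pcdh10 (10) and Arpp21 (15) correlated with each other, at r = 0.47 to 0.80 over their 10 pairs, highest for Cog7 and Scamp1. Arpp21 correlated at 0.78 with Pcdh10, 0.77 with Cog7, 0.76 with Rad21 and 0.69 with Clic6. The sets led by Nadk2 (10) and Alg10b (9) correlated at r = 0.80, and those led by Nadk2 and 6330415B21Rik at r = -0.77. The make-up of the Arpp21, Pcdh10, Nadk2 and Alg10b sets depended on the settings. With Spearman's rho the closest set held 4, 5, 1 and 0 of their genes, in that order. Within the largest hybridization date it held 2, 0, 0 and 0, and with RIN regressed out 15, 9, 6 and 9. Other sets named here also changed. With Spearman's rho the closest set held 5 of the 13 Rad21 genes and 5 of the 10 Calb2 genes, and within the largest date 8 and 7. With the tree divided at 0.4, no gene of the Rad21, Scamp1, Nktr or Calb2 set was in a set of at least 8. In the Cog7, Rad21 and Scamp1 sets no gene correlated positively between cortex and thalamus. In the Arpp21 set Arpp21 did, and in the Pcdh10 set the astrocyte water channel gene Aqp4 and Eps8 did. Among all genes 9.65% did so, and among the clustered genes 33%.

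Gene lists for cell types and pathways were also read for how strongly their members went together in cortex. The median pairwise r over all pairs of genes was near 0, and 8 markers of striatal projection neurons had the highest of 26 lists at 0.821, with every pair over 0.5. Myelinating oligodendrocytes followed at 0.580, immediate early genes at 0.458, choroid plexus at 0.373, the 20S proteasome core at 0.302, meninges and mural cells at 0.300 and microglia at 0.288. In thalamus the same lists had 0.023, 0.249, 0.238, 0.729, 0.099, 0.562 and 0.237, so choroid plexus and meninges went together more closely there. The 14 cortical excitatory neuron genes, which define the tissue, had a median of 0.043, and the 11 interneuron genes 0.007. The lists were written with earlier results of these data known.

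**Figure D5:**
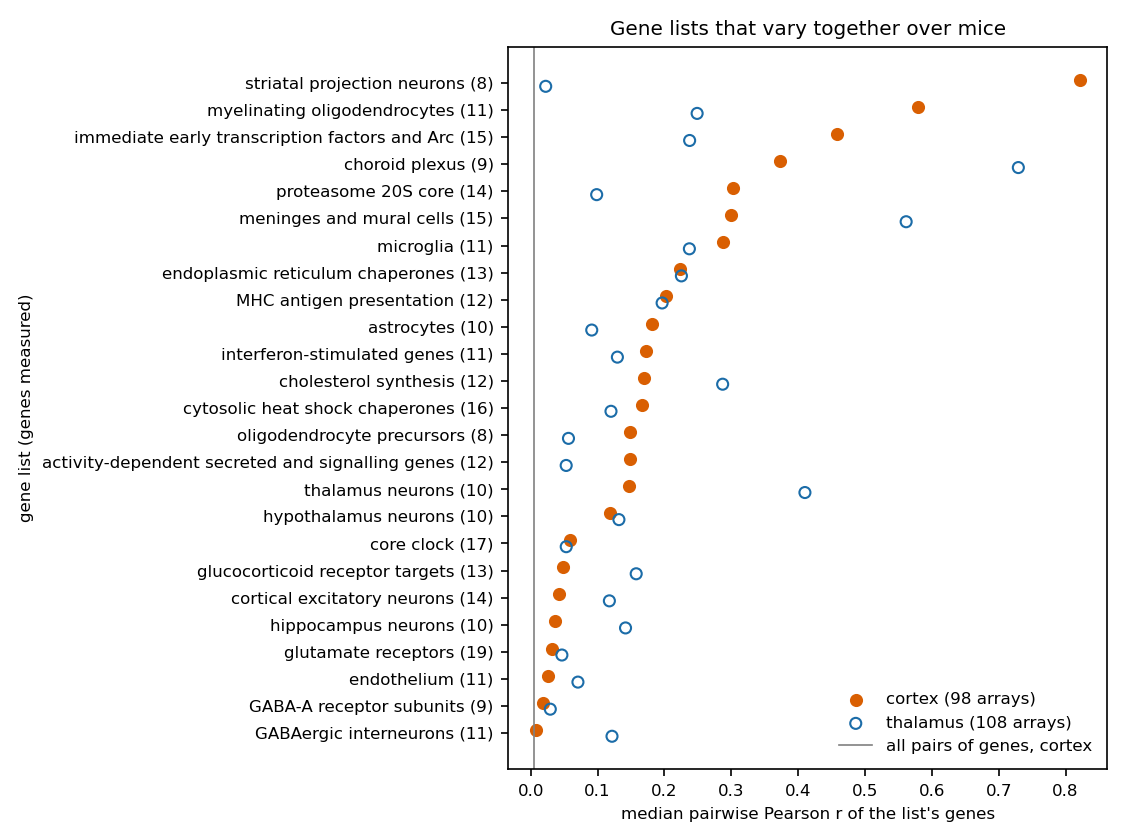
Median pairwise Pearson r over mice within each gene list of at least 8 genes, in cortex (filled, 98 arrays) and thalamus (open), with the number of genes measured in brackets and a grey line at the median of all pairs in cortex. Striatal projection neurons are highest in cortex at 0.821 and lie at 0.023 in thalamus.

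Single genes of known function were followed to their closest neighbours over the 98 mice, chosen as the 5 genes with the highest r and given with no test. The closest to Fos were Egr2 (0.899), Nr4a1 (0.885), Dusp6 (0.852), Dusp1 (0.851) and Junb (0.848). For the clock gene Per1, whose promoter also responds to activity, they were Nr4a1 (0.604), Junb (0.602), Dusp1 (0.589), the clock-controlled gene Ciart (0.557) and Arc (0.554). Drd1 had Gpr6 (0.848), Penk (0.835) and Ppp1r1b (0.831). Mbp had the carbonic anhydrase gene Car2 (0.693), Qdpr (0.668), Bcas1 (0.667), Ugt8a (0.638) and Mobp (0.623). Ugt8a and Mobp are among the oligodendrocyte markers listed here.

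Glial, vascular and choroid plexus genes were followed in the same way. Decorin, Dcn, a matrix gene of meningeal fibroblasts, had Serping1 (0.737), Ogn (0.683) and the collagen-processing gene Pcolce (0.664). Ttr, whose mice form clusters so that no r is given, had Calml4, the klotho gene Kl, Sostdc1, Ecrg4 and the coagulation factor gene F5. The endothelial tight junction gene Cldn5 had Cd93 (0.592), and the microglial receptor gene Cx3cr1 had Csf1r (0.540). The endoplasmic reticulum chaperone gene Hspa5 had Manf (0.566), which is induced with it when proteins misfold. Tbr1 had Sel1l3 (0.607) and the interneuron peptide gene Vip (0.605).

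For Pttg1, Gfap and Gabra2 all 5 neighbours lay on the gene's own chromosome, 11, 11 and 5. Gabra2, a GABA-A receptor subunit gene, ran with Stbd1 (0.766) and Atp10d (0.636), and Gabra2 itself correlated between cortex and thalamus at r = 0.740 and rho = 0.748, with hippocampus at r = 0.660 (rho = 0.626) and with hypothalamus at r = 0.729 (rho = 0.737; adjusted permutation p = 2.56e-05 each). Gfap, the filament gene of astrocytes, had Coa3 (0.505) and Krt12 (0.455) closest.

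The lists were also counted for positive correlations between cortex and thalamus. Of 11 microglia genes, 8 correlated positively between cortex and thalamus, led by Ctss (r = 0.73) and Cx3cr1 (r = 0.467, rho = 0.424, permutation p = 1e-05). Of 13 endoplasmic reticulum chaperones, 8 did, with Pdia6 at r = 0.73, and Hspa5 at r = 0.505 (rho = 0.478, permutation p = 1e-05). Of 15 immediate early genes 11 did, of 17 core clock genes 7 did, with Npas2 highest at r = 0.66 and Per2 at r = 0.47, and of 12 genes of MHC antigen presentation 7 did. None of 8 striatal, 9 choroid plexus, 11 interneuron, 19 glutamate receptor or 14 proteasome genes did. Nor did any of 10 thalamus neuron, 10 hypothalamus neuron or 8 oligodendrocyte precursor genes, or Cirbp. Among all genes 9.65% did, so 0 in lists this small lies near that share and does not set these lists apart.

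Cortex was next set against thalamus, to ask which genes vary more from mouse to mouse in cortex. The spread of a gene was the absolute deviation of each array from its region's median, and the regions had been normalised apart. It differed for 8495 of 45037 probe sets (18.9%, limma, adjusted p under 0.05), and by gene it was wider in cortex for 2929 (16.1%) and narrower for 881 (4.84%) of 18193. With the 14 cortex and 20 thalamus arrays of the shared hybridization date alone, 368 probe sets passed. Most arrays of both regions lay outside that date. The full comparison therefore does not separate region from hybridization date, and the part of date in its counts was not tested.

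Among the genes with the widest cortical excess, Prrc2a had a mean absolute deviation of 1.01 in cortex and 0.27 in thalamus, a difference of 0.74 ± 0.08 (SE, adjusted p = 1.16e-17). Prmt1 followed at 0.58 ± 0.05 and Irs4 at 0.57 ± 0.06, then D430042O09Rik (0.51), the oxidoreductase gene Wwox (0.44), Egr2 (0.43), the receptor gene Gpr101 (0.43), Eomes (0.42), the glycogen-binding protein gene Stbd1 (0.42) and Slc6a11 (0.40). Egr2 ran from 4.55 to 8.30 with a median of 6.39 in cortex, against 3.68 to 5.12 with a median of 4.23 in thalamus. On the shared date, Wwox, Irs4 and Gpr101 passed and the other 7 did not. Egr2, Stbd1 and Eomes had low means in thalamus (4.24, 4.50 and 4.77). How far low signal narrows their spread there was not tested.

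Genes narrower in cortex included hypothalamic peptide genes and genes with high cortical levels. Hcrt, the orexin precursor, ran from 5.54 to 6.92 with a median of 6.10 in cortex, against 3.58 to 10.09 with a median of 6.91 in thalamus, a difference in mean absolute deviation of -0.64 ± 0.07. Pmch, which encodes melanin-concentrating hormone, ran from 4.30 to 7.99 in cortex and from 3.82 to 11.82 in thalamus (-0.51 ± 0.08). Crym, whose protein binds thyroid hormone, ran from 9.77 to 10.79 in cortex and from 3.79 to 8.60 in thalamus (-0.53 ± 0.05). Rab5c (-0.63), Hoxb5 (-0.55), 1700063D05Rik (-0.51), the dendritic protein gene Ddn (-0.43), the desmosomal gene Dsp (-0.38), Neurod6 (-0.37) and Sult2b1 (-0.37) made up the rest. On the shared date Hcrt, Hoxb5, Crym and Ddn passed. Hoxb5, Dsp and 1700063D05Rik had low means in cortex (3.65, 3.95 and 4.30). How far low signal narrows their cortical spread was not tested.

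The spread was also counted by list, where 16.1% of all genes were wider and 4.84% narrower. These counts come from the full comparison, so region and hybridization date were not separated in them either. Of 8 striatal markers 7 were wider and none narrower, for example Pde10a with an SD of 0.33 in cortex and 0.17 in thalamus. Of 11 oligodendrocyte markers 8 were wider and none narrower, of 15 immediate early genes 6 were wider and Egr3 was narrower, and of 17 core clock genes 7 were wider and 1 narrower. Cortical excitatory markers went the other way, with 8 of 14 narrower and 2 wider, as did choroid plexus (4 narrower and 1 wider of 9) and meninges and mural cells (6 narrower and none wider of 15).

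RNA quality, processing codes and traits were each fitted to the cortex arrays. No probe set of 45037 (0%) was tied to RIN by limma at adjusted p under 0.05, with 2188 at an unadjusted p under 0.05 and a smallest adjusted p of 0.988. The 28S/18S ratio, the RNA concentration and the yield of labelled cRNA, tried in place of RIN after the data were seen, also gave 0, with 2453, 480 and 129 at an unadjusted p under 0.05. Within the 78 arrays of the largest hybridization date 5 probe sets were tied to RIN at adjusted p = 0.0303. They were of the vascular receptor gene Flt1 (-0.21 per RIN unit), the kinase gene Slk (0.19 and 0.24), Azin1, an inhibitor in polyamine metabolism (0.61), and Gmfb (0.43). The codes for hybridization date, cohort, homogenization, extraction and plate gave 0 called probe sets each (0%), with 11, 0, 275, 531 and 1458 at an unadjusted p under 0.05. The median probe set had 1.46% of its variance between cohorts, where random grouping would give 8.25% on average. The deposited values thus hold almost no cohort difference, and a cohort effect could not be tested. The median share also lay under the average of random grouping for hybridization date (0.490% against 2.06%) and homogenization (8.27% against 11.3%). The same held for extraction (7.93% against 10.3%) and plate (3.93% against 5.15%). A median is set against an average here, which can make part of the smaller gaps. With shares this low, the 0 calls for these codes do not show that they had no effect.

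Of 14 sleep and behaviour traits, 12 had no probe set tied to them in cortex (0% each), and 2 had 1 each (0.00222% of 45037). Those 12 were baseline NREM delta power, amount and bout number, delta power and wake after deprivation, wake and REM sleep after restraint, open field distance, a plus maze measure identified as open arm time but described as time in the center, cued and contextual freezing, and immobility bout duration in tail suspension. Their smallest adjusted p ran from 0.0756 to 0.900, and each had 2098 to 3527 probe sets at an unadjusted p under 0.05.

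Fam149b ran from 6.92 to 7.72 with a median of 7.33, and fell with the amount of REM sleep at baseline by 0.077 ± 0.015 log2 units per SD of the trait (SE, limma, adjusted p = 0.0396). Over the 93 mice with both values r was -0.495 and rho -0.491 (permutation p = 1e-05 for each), and r was -0.459 with the 2 most extreme mice left out and -0.492 within the largest hybridization date. Lyrm9, which encodes a small protein of a mitochondrial assembly family, ran from 7.38 to 8.26 with a median of 7.95, and rose with the time spent resting in the forced swim test by 0.092 ± 0.017 per SD (adjusted p = 0.0219). Over its 75 mice, all of the largest date, r was 0.543 and rho 0.485 (permutation p = 1e-05 for each), and r was 0.520 without the 2 farthest mice. The adjusted p-values cover the probe sets of a trait and not the 14 traits, and with ranks of the trait in the same fit neither gene passed. Slopes are per SD because no scale is stated for the deposited traits.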

How the data were processed

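Total RNA of 4 brain regions was measured on Affymetrix arrays. The deposited values are log2 expression that the authors made using RMA in the affy package (tools named by the submitters' processing notes, no version given). From the values, each region was normalised apart, and differences between cohorts and hybridization dates were nearly absent, so p-values can be somewhat too small. Hippocampus and hypothalamus means lay off the usual log2 scale, so these regions entered correlations alone. The deposited trait values are in other units, a scale of its own per trait. The number of arrays limits the precision. Missing values (0.224%) stayed missing in limma 3.58.1 (R 4.3.3) and took the probe set's mean in other steps. 19 columns of the trait table matched no array and were not used.

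Genes were named from the platform annotation with 1 probe set each, the one with the highest mean in cortex. Spread was fitted on absolute deviations and trait, RIN and label effects as slopes or F tests, with Benjamini-Hochberg adjustment over 45037 probe sets at 0.05. Region correlations used the t distribution for all probe sets and 100000 permutations, two-sided, for named genes (Python 3.11.15, scipy 1.17.1). Sets came from average linkage on 1 minus r, with the tree divided at 0.5 and at least 8 genes. Named were the 20 highest means, the 25 largest SDs, the leading 8 genes and list members of a set, the 5 nearest genes of each seed gene, the 10 largest spread differences each way and up to 5 genes per trait, with a few further set or list members named after their values were seen. The animal as a replicate block used a correlation estimated on 1 in 10 probe sets. Members and lists were chosen with earlier results of these data known. The scripts were tested on simulated data.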

Additional observations from a re-analysis of the deposited data

How the results depend on the processing

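The number of covarying sets and their members changed with the settings: 27 sets with 425 genes became 9 sets with 147 genes when the tree was divided at 0.4, 16 with 265 genes when 1000 genes were clustered, and 12 with 148 genes without a minimum on the mean. With the probe set of the largest SD per gene, 31 sets with 492 genes shared 139 genes with those reported. At least 50% of a set's genes stayed together in 26 of the 27 sets with RIN regressed out, 20 with Spearman's rho, 17 on the largest date, 13 with 1000 genes, 8 with the probe set of the largest SD, 7 at 0.4 and 2 without the minimum, which changes the genes clustered. At 0.4, 19 of the 27, among them those led by Cck, Daam1, Evi2a, Prrc2a and Calb2, had no gene in a set of at least 8. The 8495 probe sets whose spread differed between cortex and thalamus became 368 on the 14 and 20 arrays of the shared date, and 13 of the 20 named genes no longer passed there, the fewer arrays being part of that alternative. With the animal as a replicate block, which pairs the regions of a mouse, 8638 passed and no call of a named gene changed. When a share of 0.333 of the probe sets, those of lowest mean, was left out, 14 of the 20 named genes kept their call. Egr2, Eomes, Stbd1, Hoxb5, 1700063D05Rik and Dsp were among those left out, so that setting does not test them. The probe sets tied to RIN went to 5 on the largest date, and those tied to baseline REM amount and to forced swim resting went to 0 with ranks of the trait. The causes were not tested. The other 59 summary values stayed within 1.5 times their value, no named result reversed, 432 values of named genes kept their side of the threshold, 20 no longer passed and 2 newly passed. Besides the 13 spreads, these 20 were Sox11 in hippocampus and Cx3cr1 in hypothalamus under 3 alternatives each, and Hspa5 in hypothalamus with ranks. Those that newly passed were Cirbp and Dcn with thalamus. Settings that leave out 1 animal were not run for groups of this size.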
